A study of Mus musculus with 11 samples.

Results

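The genes described here carry the names of F-box proteins and ubiquitin-conjugating enzymes. They were compared between basal progenitors of mouse cortex at embryonic day 16 (E16) and embryonic day 13 (E13). Members were chosen by name alone, as all array probes whose platform gene symbol begins with Fbxo, Fbxl or Fbxw and a digit, or with Ube2. The rule found 194 of the 45281 probes, standing for 103 genes: 134 probes of 69 F-box genes and 60 probes of 34 Ube2 genes. No intensity entered the rule, but the 2 families were themselves picked from measured stage differences, the E16 minus E13 contrast of the same arrays. Counts and medians over a family are therefore descriptions and support nothing by themselves, while each adjusted p comes from one fit across all genes.

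Ubiquitin is passed from an activating enzyme (E1) to a conjugating enzyme (E2) and then, with the help of a ligase (E3), to a target protein. The E2 enzymes carry ubiquitin, or a relative such as Nedd8 or ISG15, on a cysteine, and they help to decide which kind of chain is built. F-box proteins are the interchangeable substrate receptors of the SCF ligases, in which Skp1 and the scaffold Cul1 hold the F-box protein next to an E2. In dividing neural progenitors this system removes cyclins, kinase inhibitors and fate regulators, and in young neurons it acts in axon growth and synapse formation.

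Basal progenitors are dividing, neuron-producing cells away from the ventricular surface of the cortex. They were sorted by flow cytometry from 5 cortices at E16 and 6 at E13, each stage drawn from 3 litters, and every array label ends in WT, read here as wild type without any treatment. Neither the sort marker nor the litter of each embryo is given in the sources used here. With more embryos than litters at each stage, the p-values below measure the spread between embryos, some of them litter mates. Total RNA was labelled as cRNA and hybridised to Illumina bead arrays, one array per embryo.

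Of all 11 measured basal progenitor markers, 8 were lower and 1 higher at E16, beside 14.1% lower and 13% higher over all genes tested. Eomes, the transcription factor that defines these cells, averaged 10.4 ± 0.327 (SD, n = 5) at E16 and 11.1 ± 0.264 (SD, n = 6) at E13 in normalized log2 intensity and was detected on every array. All 6 measured markers of Cajal-Retzius cells, early neurons of the marginal zone, were lower at E16, with list means between 7.66 and 8.72 at E16 and between 10.3 and 11.1 at E13. The highest of these means were those of replicate 3 at E16 and replicate 1 at E13. A mitosis list had 14 of 15 measured genes lower at E16, with list means of 7.67 to 8.11 at E16 and 8.95 to 9.47 at E13. The single measured red cell gene, the globin Hba-a1, was higher at E16 by 2.48 (adjusted p = 0.00643 in limma), whereas 0 of 7 endothelial genes were detected widely enough to be measured. Of 10 measured radial glia genes, markers of the stem cells that give rise to basal progenitors, 4 were higher and 1 was lower at E16, and the list means did not overlap, at 7.69 to 7.81 at E16 and 7.22 to 7.50 at E13. The glutamate transporter Slc1a3 (2.22), the phosphatase Ptprz1 (1.94) and Mfge8 (1.21) were higher at E16, while the intermediate filament Vim was lower (-1.56). Pax6 (0.13), Sox2 (-0.23), Hes1 (-0.11), Hes5 (0.12) and Nes (-0.47) did not pass, and the median difference of the radial glia list was 0.12. Of 5 measured interneuron genes 1 was higher at E16 (Gad2, 0.77) and 2 were lower: Dlx2, detected on 0 of 5 E16 and 5 of 6 E13 arrays, and Nxph1, detected on 2 of 5 E16 and 6 of 6 E13 arrays. The part of the marker and mitosis lists in the differences below was not tested, and in sorted bulk RNA fewer cells of a type and less RNA per cell cannot be told apart.

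A gene counted as measured when at least 1 of its probes was detected (detection p under 0.05) on 5 or more arrays. This held for 45 of 69 F-box genes and 31 of 34 Ube2 genes. All 11 arrays detected the brightest probe of 42 of these F-box genes and 28 of these Ube2 genes. Of the 24 F-box genes not measured, 12 are Fbxw genes that lie together on chromosome 9 (GRCm38.p6, 109139454 to 109790660), and all 12 were detected on 0 of 11 arrays. The single probe of Fbxo5, the inhibitor of the anaphase-promoting complex also called Emi1, was likewise detected on 0 of 11 arrays, as were those of Fbxo43, its meiotic relative, and Fbxw11, a close relative of the beta-TrCP receptor. Of the E2 genes, Ube2v2, Ube2w and Ube2dnl2 were detected on no array. Fbxo40 reached 1 array. A probe without signal does not show that the transcript was absent. For Ube2b, 1 probe was detected on 0 of 11 arrays while the brightest was detected on all 11.

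The families leaned in opposite directions. At E16, 12 F-box genes were higher and 1 was lower, while 2 Ube2 genes were higher and 8 were lower (limma, adjusted p under 0.05). The remaining 32 F-box and 21 Ube2 genes did not pass. Differences are given in log2 units as E16 minus E13, with a median of 0.11 over the 45 F-box genes, -0.23 over the 31 Ube2 genes and -0.01 over all 10568 genes tested. Positive differences were seen for 31 of 45 F-box genes and 5 of 31 Ube2 genes, beside 5197 of all 10568 genes tested. Across all genes 27.1% passed, 13% as higher and 14.1% as lower, beside 28.9% of measured F-box genes and 32.3% of measured Ube2 genes. With every detected probe tested by itself, named or not, 22.6% passed, against 14 higher and 2 lower of 72 F-box probes and 2 higher and 12 lower of 50 Ube2 probes. The higher F-box genes were 26.7% of those measured and the lower Ube2 genes 25.8%. The share of changed genes in either family was thus near that of the array, and nothing is read from the split by direction because the families were proposed with it in view. Centring each array on its median in place of quantile normalization gave 9 higher and 1 lower F-box genes and 1 higher and 11 lower Ube2 genes. Leaving out E13 replicate 1 and E16 replicate 3 together gave 9 higher and 0 lower F-box genes and 1 higher and 5 lower Ube2 genes. With the level of Hba-a1 as a covariate, which itself differed between the stages, 2 F-box genes were higher (Fbxo10 and Fbxw7) and 0 lower, and 1 Ube2 gene was higher (Ube2ql1) and 1 lower (Ube2c), while the whole table kept 494 higher and 603 lower genes.

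**Figure D1:**
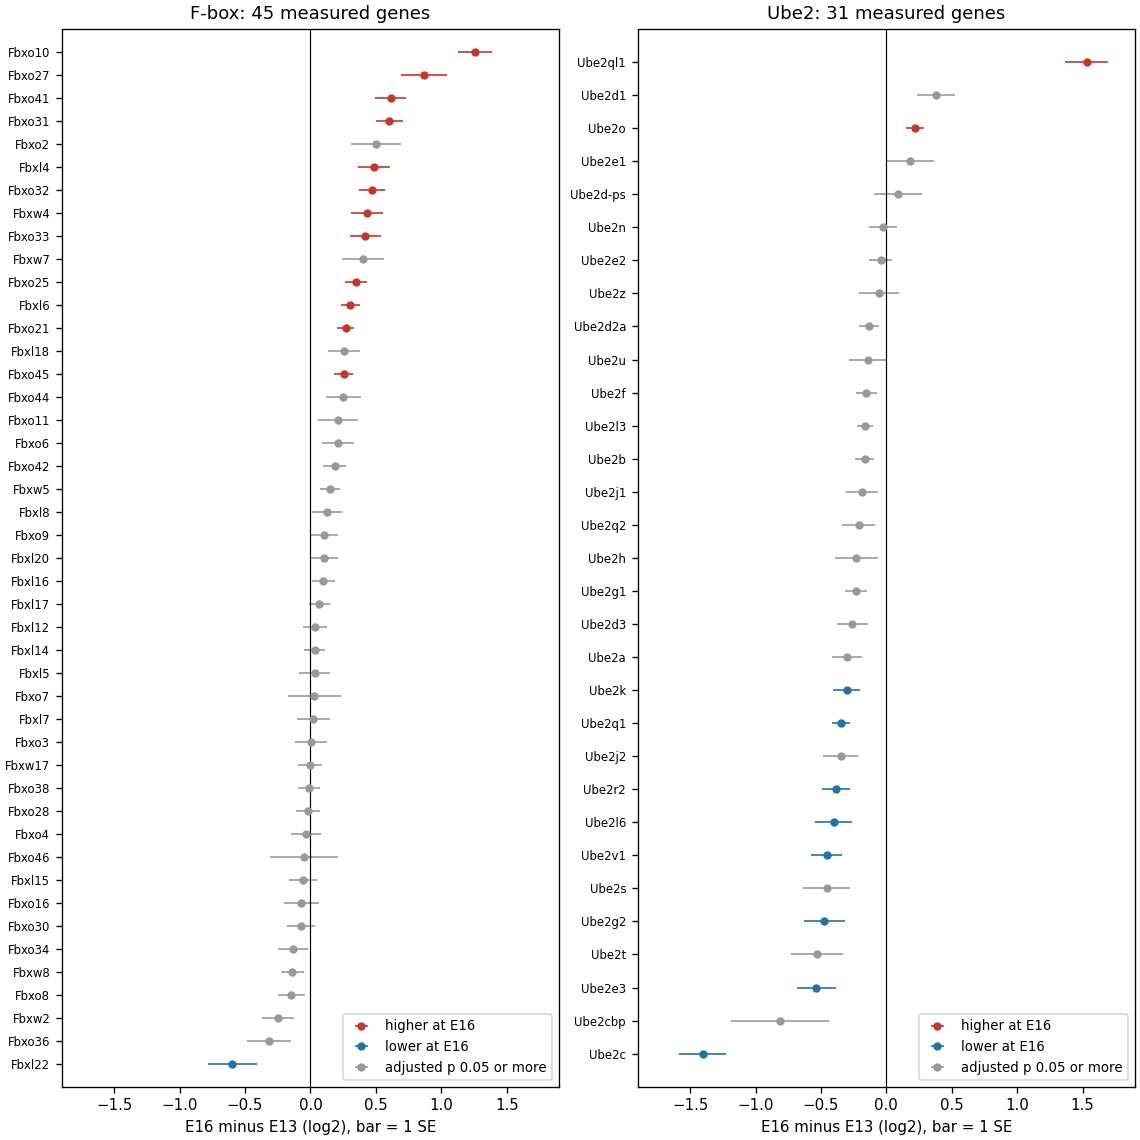
E16 minus E13 difference of each measured gene in log2 units (x axis, bars 1 SE) for 45 F-box genes (left) and 31 Ube2 genes (right), ordered by size, with red for genes higher at E16, blue for genes lower at E16 and grey for genes that did not pass. Fbxo10 and Ube2ql1 have the largest positive and Fbxl22 and Ube2c the largest negative differences of their families.

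**Figure D2:**
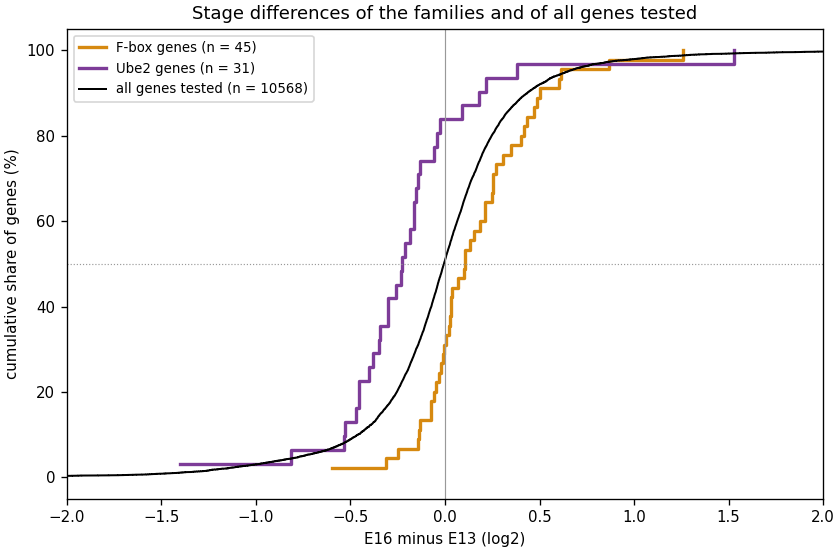
Cumulative share of genes (y axis, percent) by E16 minus E13 difference in log2 units (x axis) for F-box genes, Ube2 genes and all genes tested. The F-box curve lies right of that of all genes and the Ube2 curve left of it over the middle of the range, with medians of 0.11, -0.23 and -0.01 in the order named.

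Of 3 E2 enzymes of mitosis and crosslink repair, Ube2c fell at E16 and Ube2s and Ube2t did not pass, with all 3 differences negative. Ube2c is the E2 that starts ubiquitin chains for the anaphase-promoting complex, the ligase that ends mitosis. Its log2 intensities were 5.18, 5.04, 5.07, 4.88 and 5.58 on the E16 arrays, and at E13 the lowest, median and highest were 6.07, 6.64 and 6.88. The stages did not overlap, the difference was -1.40 (SE 0.179, adjusted p = 3.92e-05 in limma), and it passed in each of 11 fits that left out 1 array. Only 1 of 5 E16 arrays, replicate 5, detected the probe, against 6 of 6 E13 arrays, so it met the detection filter through E13. The lowest detected signal of the E16 arrays lay between 5.11 and 5.19. The E16 level is thus close to background and the size of the fall is uncertain. This single probe is absent from the authors' deposited value table and fails a filter for detection on every array, so Ube2c could not be checked under those 2 alternatives.

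Ube2s, which elongates the chains that Ube2c begins, read 6.31, 5.73, 6.23, 6.64 and 5.78 at E16, against a lowest, median and highest value of 6.17, 6.59 and 6.96 at E13. The ranges overlapped and the difference of -0.46 (SE 0.182) did not pass (adjusted p = 0.0771 in limma). It passed without E13 replicate 4 (adjusted p = 0.0433), without E16 replicate 4 (adjusted p = 0.0241) and with median centring (adjusted p = 0.0474). Ube2t, the E2 of the Fanconi anaemia pathway for DNA crosslink repair, read 6.37, 6.72, 6.45, 5.60 and 6.23 at E16 and from 6.43 through a median of 6.70 to 7.30 at E13. Its difference of -0.53 (SE 0.202) also missed the threshold (adjusted p = 0.0648 in limma), but passed without E13 replicate 4 (adjusted p = 0.0477), without E16 replicate 2 (adjusted p = 0.0351) and with median centring (adjusted p = 0.0392). Ube2cbp, a protein named for binding Ube2c and not itself an E2, split the E16 arrays, with 7.50, 6.93 and 7.03 on replicates 1, 2 and 5 but 5.24 and 5.19 on replicates 3 and 4. At E13 it lay between 6.87 and 7.69, and the difference of -0.81 (SE 0.375, adjusted p = 0.125 in limma) passed under 2 of the settings tried, with array weights (-0.97, adjusted p = 0.0485) and without E16 replicate 1 (-1.09, adjusted p = 0.0360).

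**Figure D3:**
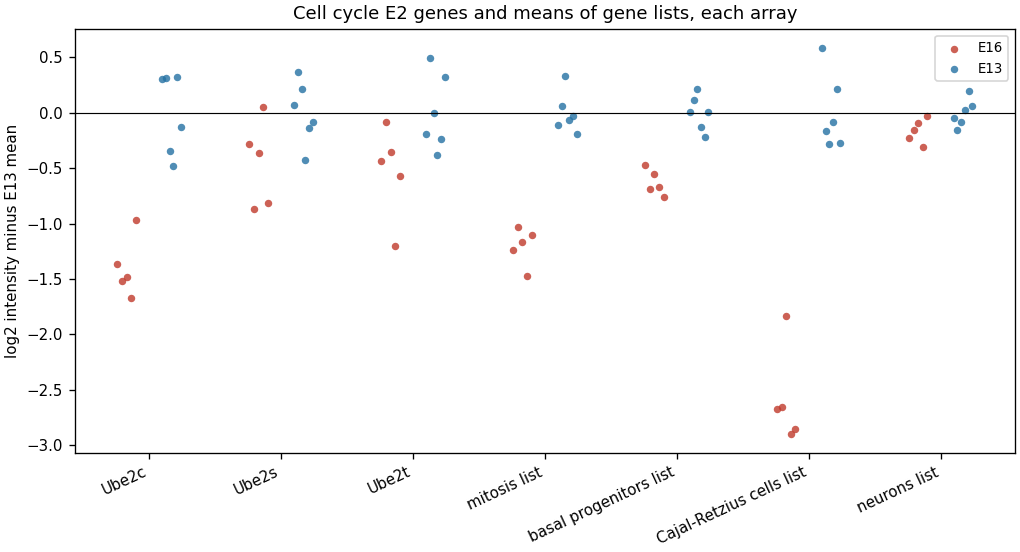
Log2 intensity of Ube2c, Ube2s and Ube2t and list means of mitosis, basal progenitor, Cajal-Retzius and neuron genes, each minus its E13 mean (y axis), with 1 point per array (red, 5 E16 arrays; blue, 6 E13 arrays). Ube2c and the mitosis, basal progenitor and Cajal-Retzius lists are lower on every E16 array than on any E13 array, while Ube2s and Ube2t overlap between the stages.

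The promoters shown are those of the genes whose differences exceeded 1 on the log2 scale: Ube2c, which fell, and Ube2ql1 and Fbxo10, which rose. Each is the stretch of 250 bases before the gene start from RefSeq (GRCm38.p6), 5′ to 3′ on the gene's strand: Ube2c at chr2:164769679-164769928 on the plus strand, Ube2ql1 at chr13:69739898-69740147 on the minus strand and Fbxo10 at chr4:45084605-45084854 on the minus strand. Capitals mark TTTGAA, the core of the cell cycle homology region, CCAAT, the box read by the factor NF-Y, and GGGCGG, the GC box, each searched on both strands.
Ube2c: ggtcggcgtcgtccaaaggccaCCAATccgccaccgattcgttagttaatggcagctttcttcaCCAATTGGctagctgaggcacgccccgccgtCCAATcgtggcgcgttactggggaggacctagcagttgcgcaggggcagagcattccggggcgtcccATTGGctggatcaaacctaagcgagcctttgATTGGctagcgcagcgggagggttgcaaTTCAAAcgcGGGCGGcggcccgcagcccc
Ube2ql1: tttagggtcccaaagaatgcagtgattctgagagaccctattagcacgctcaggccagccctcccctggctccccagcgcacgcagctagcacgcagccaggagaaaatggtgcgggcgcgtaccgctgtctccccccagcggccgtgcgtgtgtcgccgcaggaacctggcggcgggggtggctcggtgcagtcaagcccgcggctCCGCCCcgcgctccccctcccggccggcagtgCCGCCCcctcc
Fbxo10: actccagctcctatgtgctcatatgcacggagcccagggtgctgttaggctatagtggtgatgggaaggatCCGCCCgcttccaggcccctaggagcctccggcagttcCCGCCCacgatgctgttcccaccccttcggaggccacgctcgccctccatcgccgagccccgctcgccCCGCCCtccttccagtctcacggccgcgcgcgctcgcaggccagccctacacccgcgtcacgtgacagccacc

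The Ube2c window held TTTGAA 1 time, read on the opposite strand 29 bases before the start, and CCAAT 6 times, of which 1 pair on opposite strands overlaps. It also held 1 GC box, whereas the Ube2ql1 and Fbxo10 windows held 2 and 3 GC boxes and neither of the other motifs. Over 27025 genes with such a window, 16.4% held TTTGAA, 34.5% CCAAT and 32.7% GGGCGG, and 17 genes (0.0629%) had CCAAT at least 6 times. A promoter was available for 80 of the 103 members, of which 7 held TTTGAA, 18 CCAAT and 48 GGGCGG. Of the 8 Ube2 genes that fell, 6 had a window, and Ube2c was the single one of these with TTTGAA or CCAAT. Of 7 windows of F-box genes that rose, 0 held TTTGAA or CCAAT and 6 held GGGCGG. For comparison, 9 of 11 windows of the mitosis genes that fell held CCAAT and 3 of 11 held TTTGAA. These matches are letters in a window, not tested binding sites.

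The Ube2q class held opposite changes. Ube2ql1, a relative of Ube2q1, had the largest rise of either family. It read 10.89, 11.23, 11.32, 11.49 and 11.46 at E16, and at E13 the lowest, median and highest values were 9.41, 9.65 and 10.44. Each E16 array exceeded each E13 array, and the difference was 1.53 or 2.89-fold (SE 0.165, adjusted p = 7.99e-06 in limma). Ube2q1 itself fell, with 11.31, 11.14, 11.18, 11.03 and 11.06 at E16 against 11.39, 11.48 and 11.56 as the lowest, median and highest at E13. The ranges were separate although the difference was only -0.35 (SE 0.0680, adjusted p = 0.00150 in limma), and all 3 of its measured probes were negative. Ube2q2 differed by -0.21 (adjusted p = 0.228).

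Of 6 measured E2 enzymes that build degradative chains or act at the endoplasmic reticulum, 3 fell, 0 rose and 3 did not pass. Over all genes 14.1% fell. Differences of the brightest probes in this group ran from -0.47 to -0.18. Ube2r2, a partner of SCF ligases and a relative of Cdc34, lay between 5.97 and 6.21 on the 5 E16 arrays and had 6.27, 6.46 and 6.62 as lowest, median and highest at E13, and fell by 0.38 (SE 0.108, adjusted p = 0.0159 in limma) with no overlap. Ube2k, which makes Lys48 chains on its own, fell by 0.30 (adjusted p = 0.0377) and was lower at E16 with each of 3 probes. Its E16 values were 10.59, 10.79, 10.78, 11.08 and 11.11, against 10.97, 11.20 and 11.33 as lowest, median and highest at E13, so that replicates 4 and 5 overlapped the E13 range. Ube2g2, the cytosolic E2 of endoplasmic reticulum degradation, fell by 0.47 (adjusted p = 0.0377), with 5.80 to 6.70 at E16 and 6.30 to 6.84 at E13. These last calls were fragile: Ube2k passed in 4 and Ube2g2 in 2 of 11 fits that left out 1 array, with adjusted p up to 0.0973 and 0.0942. The others of this group were Ube2g1 (-0.23, adjusted p = 0.0603), the membrane-anchored Ube2j2 (-0.35, adjusted p = 0.0637) and Ube2j1 (-0.18, adjusted p = 0.291). A second Ube2j2 probe had the opposite sign (0.40, adjusted p = 0.104 in the fit over all probes), and the mean of both probes gave 0.02 (adjusted p = 0.911). A dimmer Ube2g1 probe fell by 0.28 in the fit over all probes (adjusted p = 0.0296).

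Ube2v1, an inactive E2 variant that steers Ube2n towards Lys63 chains, read 9.27, 9.07, 9.40, 9.65 and 9.45 at E16 against 9.58, 9.87 and 10.03 as lowest, median and highest at E13, and fell by 0.46 (SE 0.117, adjusted p = 0.00941 in limma), with replicate 4 alone inside the E13 range. Its partner Ube2n differed by -0.03 (SE 0.106, adjusted p = 0.886), and a second Ube2n probe by -0.29 (adjusted p = 0.178 in the fit over all probes). Whether the pair differed in response was not tested.

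In the Ube2d and Ube2e classes, broad-use E2s that serve many RING ligases, 1 of 7 measured genes passed, beside 27.1% of all genes tested. These 7, and the 31 measured Ube2 genes, include Ube2d-ps, a pseudogene by its symbol, which did not pass (0.09, adjusted p = 0.767 in limma). Ube2e3 read 10.18, 10.00, 10.19, 10.71 and 10.68 at E16 and between 10.55 and 11.25 at E13, and fell by 0.54 (SE 0.148, adjusted p = 0.0140 in limma). E16 replicates 4 and 5 stood above the other E16 arrays and inside the E13 range. A second Ube2e3 probe gave -0.06, and with the mean of both probes the difference was -0.30 (adjusted p = 0.214). Its relatives Ube2e1 (0.18, adjusted p = 0.507) and Ube2e2 (-0.04, adjusted p = 0.758) did not pass. Ube2d1 had the largest positive difference among E2 genes that missed the threshold (0.38, SE 0.148, adjusted p = 0.0706). It passed without E16 replicate 4 (adjusted p = 0.0444), without E16 replicate 5 (adjusted p = 0.0351) and with array weights (adjusted p = 0.0280). Ube2d3 (-0.26, adjusted p = 0.126; a dimmer probe -0.41, adjusted p = 0.0394 over all probes) and Ube2d2a (-0.13, adjusted p = 0.241) leaned the other way, and closely similar Ube2d sequences may share signal on such probes.

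E2s with particular partners showed small differences. Ube2l6, which conjugates the interferon-induced modifier ISG15, fell by 0.40 (SE 0.141, adjusted p = 0.0478 in limma) and was detected on 2 of 5 E16 arrays and on all 6 E13 arrays. That call passed in 3 of 11 fits without 1 array. Ube2l3, which serves HECT and RBR ligases, differed by -0.16 (adjusted p = 0.0726), and its second probe fell by 0.24 (adjusted p = 0.0238 in the fit over all probes). The Nedd8 conjugator Ube2f differed by -0.15 (adjusted p = 0.175). The Rad6 homologues Ube2a, on the X chromosome, and Ube2b differed by -0.30 (adjusted p = 0.0662) and -0.16 (adjusted p = 0.107). Ube2o, a large enzyme that acts as both E2 and E3 and is abundant in reticulocytes, rose by 0.22 (SE 0.0692, adjusted p = 0.0287). It read 12.63, 12.48, 12.42, 12.42 and 12.33 at E16 against 12.15, 12.22 and 12.41 as lowest, median and highest at E13, and replicate 5 overlapped the E13 range. Ube2o passed in 6 of 11 fits without 1 array and differed by 0.14 (adjusted p = 0.272) with median centring. The globin Hba-a1 was higher at E16 on the same arrays, and with it as a covariate Ube2o differed by 0.17 (adjusted p = 0.355). Most calls of the whole table were lost with this covariate, leaving 494 higher and 603 lower genes against 1373 and 1495 without it. A part of red cell RNA in the Ube2o difference was not tested. Ube2h, another E2 of maturing red cells, differed by -0.23 (SE 0.166, adjusted p = 0.336).

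**Figure D4:**
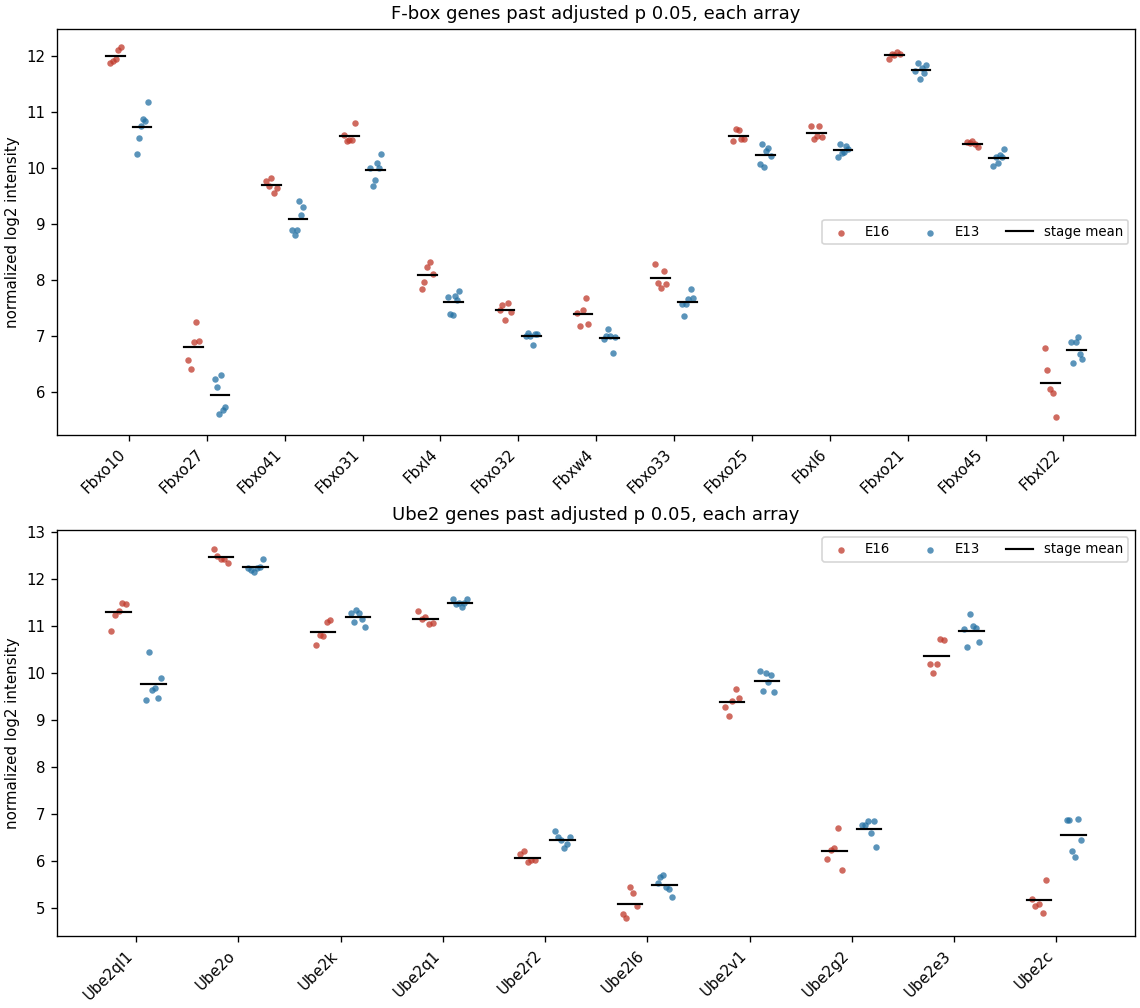
Normalized log2 intensity (y axis) on each array for the F-box genes (top, 13 genes) and Ube2 genes (bottom, 10 genes) that passed, with red points for 5 E16 arrays, blue points for 6 E13 arrays and black lines for stage means. All 12 F-box genes that rose have separate stages, whereas among the Ube2 genes Ube2ql1, Ube2q1, Ube2r2 and Ube2c do. These are 12 of 45 measured F-box genes and 4 of 31 measured Ube2 genes, beside 17% of all genes tested.

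The 12 F-box genes that rose did so by 1.19-fold to 2.40-fold, and for each of them the lowest E16 array lay above the highest E13 array. Stages that did not overlap were seen for 12 of 45 measured F-box genes (26.7%) and 4 of 31 measured Ube2 genes, beside 17% of all genes tested. Each of the 12 also passed in all 11 fits that left out 1 array. Fbxo10, a receptor known for targeting the survival factor BCL2, rose the most. Its values were 11.88, 11.92, 11.96, 12.11 and 12.16 at E16, and 10.26, 10.80 and 11.18 were the lowest, median and highest at E13, which made the difference 1.26 (SE 0.130, adjusted p = 5.25e-06 in limma). The E16 arrays lay close together (SD 0.122) and the E13 arrays spread more (SD 0.317).

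Fbxo41, a neuron-enriched F-box protein found at centrosomes, read 9.77, 9.68, 9.82, 9.56 and 9.65 at E16 and 8.81, 9.03 and 9.42 as lowest, median and highest at E13 (difference 0.61, SE 0.117, adjusted p = 0.00114 in limma). Fbxo31, which targets cyclin D1 after DNA damage and shapes axons and dendrites, read 10.59, 10.49, 10.49, 10.49 and 10.80 at E16 against 9.69, 10.00 and 10.26 at E13 (0.60, SE 0.104, adjusted p = 5.05e-04). In both genes the stages were separate. All 3 Fbxo31 probes were positive, at 0.60, 0.22 and 0.27, and the brightest alone passed. Fbxo45, which works with the ligase Phr1 in axon tract and synapse formation, rose by 0.25 (SE 0.0723, adjusted p = 0.0170), with 10.47, 10.45, 10.48, 10.43 and 10.37 at E16 and a highest value of 10.34 at E13. Its dimmer second probe gave -0.17, and the call was lost with the mean of both probes (0.04, adjusted p = 0.756) and with median centring (0.21, adjusted p = 0.140). In the neuron list, 1 of 9 measured genes was higher and 4 were lower at E16. A part of neuron content in these F-box differences was not tested.

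Measured genes of the F-box subgroup that shares a domain known from glycoprotein binding were all on the positive side. Of 4 measured genes 1 rose and 3 did not pass, with differences from 0.21 to 0.87. Over all genes tested 13% rose, and 5197 of 10568 differences were positive. Fbxo27 read 6.56, 6.41, 6.90, 7.24 and 6.91 at E16 and 5.60, 5.90 and 6.30 as lowest, median and highest at E13, a rise of 0.87 (SE 0.176, adjusted p = 0.00187 in limma). Fbxo2, the brain member of this group, differed by 0.50 (SE 0.193, adjusted p = 0.0675), the largest rise among F-box genes that missed the threshold, and passed without E13 replicate 6 (adjusted p = 0.0319) or E16 replicate 2 (adjusted p = 0.0279). Its E16 values of 5.96 to 6.84 overlapped the E13 values of 5.60 to 6.42. Fbxo44 (0.25, adjusted p = 0.186) and Fbxo6 (0.21, adjusted p = 0.226) did not pass, and Fbxo17 was not detected.

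The related pair Fbxo32 and Fbxo25 rose together. Fbxo32, called atrogin-1 for its part in muscle wasting, read 7.46, 7.54, 7.29, 7.59 and 7.43 at E16 against 6.84, 7.01 and 7.06 as lowest, median and highest at E13 (0.47, SE 0.102, adjusted p = 0.00288 in limma). Fbxo25 rose by 0.35 (SE 0.0876, adjusted p = 0.00793), with E16 arrays from 10.49 to 10.70 and E13 arrays from 10.02 to 10.42. The other 2 Fbxo32 probes were positive but did not pass, and the mean of its probes gave 0.29 (adjusted p = 0.0647).

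The other genes that rose have varied functions. Fbxl4, a mitochondrial protein needed to keep mitochondrial DNA, rose by 0.49 (adjusted p = 0.00820), with 7.84 to 8.33 at E16 and 7.38 to 7.81 at E13. Fbxw4, or dactylin, known from limb malformation, rose by 0.43 (adjusted p = 0.0162), and its second probe rose by 0.51 (adjusted p = 0.0348 in the fit over all probes). Fbxo33, a receptor for the RNA-binding protein YB-1, rose by 0.42 (adjusted p = 0.0154). Fbxl6 rose by 0.30 (adjusted p = 0.00661) and Fbxo21, a receptor for the differentiation inhibitor EID1, by 0.27 (adjusted p = 0.00583). In the fit over all probes, the second Fbxo21 probe also rose (0.47, adjusted p = 0.0119 in limma). The second Fbxl6 probe was positive but did not pass (0.11, adjusted p = 0.426). With median centring Fbxo21 (0.21, adjusted p = 0.0992) and Fbxw4 (0.37, adjusted p = 0.0809) no longer passed.

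Fbxl22, known from the sarcomere of heart muscle, was the F-box gene that fell. It read 6.79, 6.39, 6.05, 5.98 and 5.56 at E16 and 6.51, 6.78 and 6.97 as lowest, median and highest at E13, and fell by 0.60 (SE 0.186, adjusted p = 0.0265 in limma). E16 replicate 1 lay inside the E13 range. The call was kept in 5 of 11 fits without 1 array, and adjusted p reached 0.0640 without E16 replicate 5.

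Fbxw7, which marks Notch, cyclin E and Myc for destruction, read 8.85, 8.72, 9.12, 8.83 and 8.90 at E16 and 7.90, 8.65 and 8.85 as lowest, median and highest at E13. The difference was 0.40 (SE 0.161, adjusted p = 0.0768 in limma), the E13 values of replicates 4 and 5 were well below the rest at 8.11 and 7.90, and it passed without E13 replicate 6 (0.48, adjusted p = 0.0403) and with array weights (0.53, adjusted p = 0.0291). Fbxl5, the iron-sensing receptor for IRP2, differed by 0.03 (SE 0.120, adjusted p = 0.879), and Fbxo7, a Parkinson's disease gene, by 0.03 (SE 0.203, adjusted p = 0.940). Of the negative differences that missed the threshold, that of Fbxo36 was the largest (-0.31, adjusted p = 0.187), detected on 1 of 5 E16 and 5 of 6 E13 arrays. Over the 32 F-box genes that did not pass, 19 differences were positive and 13 negative, and 16 were smaller than 0.1 in size. Of these, 1 gene had a probe that passed by itself: 1 of 3 measured Fbxo34 probes fell by 0.54 (adjusted p = 0.0251 in the fit over all probes), while its brightest gave -0.13. No member had probes that passed in opposite directions.

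F-box proteins that carry other names gave a mixed picture in the same fit. Of 7 measured genes 2 rose, 1 fell and 4 did not pass, with a median of 0.15, beside 13% higher and 14.1% lower over all genes. Ccnf, a cyclin-like F-box protein of the late cell cycle, fell by 0.68 (SE 0.134, adjusted p = 0.00141 in limma) and was detected on 4 of 5 E16 arrays. Lmo7, seen on 5 of 5 E16 and 0 of 6 E13 arrays, was higher at E16 by at least 1.32-fold, measured against the lowest detected signal of each E13 array (adjusted p = 1.04e-04). The histone demethylase Kdm2a rose by 0.38 (adjusted p = 0.0147). The cell cycle receptor Skp2 differed by 0.35 (adjusted p = 0.138) and Btrc, the beta-TrCP receptor of beta-catenin, by 0.15 (adjusted p = 0.377).

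Of 13 measured genes of the SCF core and its Nedd8 cycle 1 rose, 1 fell and 11 did not pass, with a median of -0.15 and 10 of 13 differences negative. Nae1, a subunit of the Nedd8 activating enzyme, rose by 0.24 (adjusted p = 0.0155 in limma), and the RING subunit Rbx1 fell by 0.18 (adjusted p = 0.0415). The scaffold Cul1 differed by -0.18 (adjusted p = 0.329) and the adaptor Skp1 by 0.13 (adjusted p = 0.381). In the COP9 signalosome, which removes Nedd8 from cullins, 2 of 9 genes fell and 0 rose (median -0.11), beside 14.1% lower over all genes. These were Cops7b (-0.23, adjusted p = 0.0498 in limma) and Cops4 (-0.18, adjusted p = 0.0441). Of 7 other cullins, Cul9 rose (0.81, adjusted p = 0.0147) and 6 did not pass.

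Of 8 measured E2 and E2-like genes outside the Ube2 naming 3 were lower and 0 higher, with a median of -0.20, beside 14.1% lower over all genes. Cdc34, the E2 of SCF ligases that drives cell cycle entry, fell by 0.92 (SE 0.170, adjusted p = 9.35e-04 in limma), averaging 6.17 ± 0.394 (SD, n = 5) at E16 and 7.08 ± 0.196 (SD, n = 6) at E13. Atg3, the conjugating enzyme of autophagy, fell by 0.41 (adjusted p = 0.00178) and Ufc1, that of the modifier UFM1, by 0.40 (adjusted p = 0.0348). Of 3 measured E1 enzymes, Atg7 of the autophagy pathway rose by 0.45 (adjusted p = 0.0153) and Uba6 (0.21) and Sae1 (-0.04) did not pass.

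The anaphase-promoting complex, the partner of Ube2c and Ube2s, had 4 of 15 measured genes lower and 0 higher (median -0.10). For this and the lists that follow, the shares over all genes were 14.1% lower and 13% higher. The activator Cdc20 fell by 1.39 (adjusted p = 4.16e-07 in limma), and the subunits Anapc15 and Anapc13 fell by 0.69 (adjusted p = 0.00217) and 0.24 (adjusted p = 0.0280). In the Fanconi anaemia list, to which Ube2t supplies ubiquitin, 2 of 8 genes fell and 0 rose (median -0.25): Fancd2 (-0.77, adjusted p = 2.15e-04) and Fanci (-0.73, adjusted p = 0.00151, detected on 2 of 5 E16 arrays), the pair that Ube2t helps to modify. Of 30 measured proteasome genes 8 fell and 0 rose, with a median of -0.17, and the largest falls were those of the ATPase subunits Psmc1 (-0.50, adjusted p = 0.00244) and Psmc2 (-0.40, adjusted p = 6.85e-05) and of Psmd2 (-0.40, adjusted p = 0.0307). In the SUMO pathway the ligase Pias3 rose (0.39, adjusted p = 0.0452) and 12 of 13 genes did not pass.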

How the data were processed

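Each array held cRNA of sorted basal progenitors of 1 embryonic cortex. Intensities of 45281 probes were deposited by the authors on a linear scale without normalization, with a detection p-value for each probe and array beside them, per the file headers; values below 0 show that a background had been subtracted. The authors' deposited value table holds log2 values with the same distribution in every array and was used as an alternative only. Their software was not stated.

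The function neqc of limma 3.58.1 (R 4.3.3) corrected the background by normexp, with detection p-values in place of control probes, added an offset of 16, quantile normalized the arrays and took log2. Probes with a detection p-value under 0.05 on at least 5 arrays were kept (20599), and the brightest named probe stood for a gene (10568 genes). Arrays detected 19731 to 20604 probes, and their number limits the precision. Stages were compared with lmFit and eBayes with a mean-variance trend, two-sided, with Benjamini-Hochberg adjustment over all genes and a threshold of 0.05. The fit was tested on simulated data. Motifs were counted in 1 window per gene.

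Members and lists were chosen with earlier results of these data known. All members that passed are named, with a few named whatever their result, as are up to 3 genes of each list that passed. Ube2m and the 4 ubiquitin genes lack a named probe and were not analysed here. Other genes were chosen after their values were seen. Probes of near-identical genes may share signal.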

Additional observations from a re-analysis of the deposited data

Results flagged for a closer look

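Within a stage, 8 of 152 groups of arrays of the measured members had a lowest or highest array far from the rest, where chance flags about 1 in 20. At E16, Fbxo6 stood high on replicate 1 (10.2, next array 9.67) and Fbxo42 low on replicate 3 (9.44, next 9.72). At E13, Fbxo46 (6.47, next 7.24) and Ube2d1 (5.42, next 5.76) were low and Ube2o was high (12.4, next 12.2) on replicate 6. Also at E13, Fbxl16 was low on replicate 3 (9.45, next 9.62), Fbxl18 on replicate 5 (9.54, next 9.95) and Fbxo32 on replicate 4 (6.84). Of these genes Fbxo32 and Ube2o passed between the stages.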

How the results depend on the processing

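No member that passed reversed its direction in the alternatives that gave 1 value per gene. Ube2c and Ube2l6 were present in 19 of these 21 alternatives. With each probe tested by itself, the second Fbxo45 probe was negative (-0.17) and did not pass. Leaving out 1 array at a time gave 12 to 14 higher and 0 to 1 lower F-box genes, 1 to 3 higher and 5 to 12 lower Ube2 genes, and medians of 0.08 to 0.14 (F-box) and -0.27 to -0.17 (Ube2). The lone fall, Fbxl22, was lost without E13 replicates 1, 3 or 4 or E16 replicates 3, 4 or 5. The Ube2 falls numbered 5 without E13 replicate 3 or 5 and 12 without E16 replicate 4, and the higher Ube2 genes numbered 3 without E16 replicate 4 or 5. Without a detection filter there were 0 lower F-box genes, 1 higher and 4 lower Ube2 genes, and an F-box median of 0.0329. With the mean of a gene's probes 2 F-box genes fell, and with each probe tested by itself 2 F-box probes fell. Median centring left 1 higher Ube2 gene, and array weights gave an F-box median of 0.0498. Median centring also moved the higher share of all changed genes to 37.4% (47.9% with quantile normalization). These settings were added with results known: without both E13 replicate 1 and E16 replicate 3 there were 0 lower F-box, 1 higher and 5 lower Ube2 genes. With Hba-a1 as a covariate, 494 higher and 603 lower genes were left in all, with 2 higher and 0 lower F-box genes (median 0.0243) and 1 higher and 1 lower Ube2 genes (median -0.25, against -0.23 without the covariate). These causes were not tested. Replicate numbers did not pair the stages (correlation of deviations -0.10 to 0.14, best with its own number for 1 of 5), and with the replicate block 14 F-box genes were higher and 1 lower, 2 Ube2 genes higher and 8 lower. Signal near background limits Ube2c, Ube2l6 and Fbxo36 at E16.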
